A study of Mus musculus with 10 samples.

Results

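Grem1, Nog and Fst, the genes of the secreted antagonists gremlin 1, noggin and follistatin, were followed together with the ligand genes Bmp2 and Bmp4, the receptor genes Bmpr1a and Bmpr2, and the target genes Id1 and Id3. These 9 genes were chosen by name as members of the bone morphogenetic protein (BMP) pathway, out of 25229 gene rows in the count table. All 9 had enough reads to be tested, among 14251 genes tested in all. Bulk RNA sequencing was performed on cultured adipose stem and precursor cells (ASPCs), which had been sorted as CD45-CD31-Pdgfra+ cells from the stromovascular fraction of perigonadal white adipose tissue (gWAT) of WT mice. Once confluent and without passaging, the cells received either 100 nM FICZ, a ligand of the aryl hydrocarbon receptor (AHR), or DMSO as vehicle, and were lysed after 6 hr. There were 5 DMSO libraries and 5 FICZ libraries, numbered 1 to 5 in each group. The age and sex of the mice are not given in the sources used here. The labels do not say that libraries came from separate animals or cultures, so the p-values below measure the spread between these samples, which may be technical.

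BMPs are secreted ligands that bring type I and type II serine/threonine kinase receptors together at the cell surface. The activated receptors phosphorylate SMAD proteins, which enter the nucleus with the shared partner SMAD4 and switch on target genes, the Id genes among the quickest. Antagonists such as gremlin 1, noggin and follistatin bind ligands outside the cell and keep them from their receptors. In adipose tissue, BMP signaling is known to commit precursor cells to the adipocyte lineage, and gremlin 1 is known to oppose this in cultured human precursors. The question put to the data was whether Grem1 differed between FICZ and DMSO, and whether Id1 and Id3 moved the other way where it did.

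The stretches of 250 bases before the RefSeq transcription starts of Grem1, Id3 and Ahrr are shown first, since Grem1 and Id3 are the antagonist and the target between which the comparison runs, and Ahrr, the AHR repressor gene, is a well-known target of the ligand used. The sequences are from RefSeq on the build GRCm38.p6, and each reads 5′ to 3′ on the strand of its gene. Capitals mark the core of the AHR response element, GCGTG, and the GC-rich SMAD box, GGCGCC, both searched on both strands. The Grem1 stretch lies at chr2:113758649-113758898 on the minus strand, the Id3 stretch at chr4:136143572-136143821 on the plus strand, and the Ahrr stretch at chr13:74292332-74292581 on the minus strand. The GENCODE vM21 start of Id3 lies upstream of its RefSeq start, so in that annotation the Id3 stretch falls inside the gene.
Grem1: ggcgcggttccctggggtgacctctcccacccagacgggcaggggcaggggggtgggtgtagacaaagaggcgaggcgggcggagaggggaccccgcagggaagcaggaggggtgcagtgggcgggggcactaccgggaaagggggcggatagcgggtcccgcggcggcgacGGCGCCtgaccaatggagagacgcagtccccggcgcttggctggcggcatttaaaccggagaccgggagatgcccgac
Id3: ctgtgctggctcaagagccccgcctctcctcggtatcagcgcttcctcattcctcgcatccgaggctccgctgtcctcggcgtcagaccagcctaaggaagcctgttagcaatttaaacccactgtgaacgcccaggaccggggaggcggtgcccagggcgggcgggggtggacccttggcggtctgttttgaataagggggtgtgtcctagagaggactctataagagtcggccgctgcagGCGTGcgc
Ahrr: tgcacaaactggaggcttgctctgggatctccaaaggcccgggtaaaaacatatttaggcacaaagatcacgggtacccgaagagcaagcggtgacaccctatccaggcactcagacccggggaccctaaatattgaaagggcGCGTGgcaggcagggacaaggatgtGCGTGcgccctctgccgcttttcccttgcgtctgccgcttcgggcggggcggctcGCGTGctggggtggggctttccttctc
The Grem1 stretch held 1 GGCGCC, 78 bases before the start, and no GCGTG in this window. The Id3 stretch held 1 GCGTG, 8 bases before the RefSeq start, and no GGCGCC. The Ahrr stretch held 3 copies of GCGTG, 107, 82 and 27 bases before the start. Ahrr held the most among the AHR target genes searched, since Cyp1a1, Cyp1b1 and Tiparp held 1 copy each, as Id3 did. Over 32851 RefSeq promoters of the same length, 28.2% held GCGTG and 9.59% held GGCGCC. The promoter table matched 5 of the 9 genes, Grem1, Bmp4, Bmpr1a, Bmpr2 and Id3, of which 1 held GCGTG and 3 held GGCGCC. The stretches of Bmpr1a and Bmpr2 likewise fall inside the GENCODE gene. G and C made up 72.0% of the Grem1 stretch, 78.8% for Bmpr1a and 64.0% for Bmpr2, the stretches with GGCGCC. For Bmp4 and Id3 the values were 63.2% and 62.8%. The shares over all promoters were not matched for G and C. The letters describe these windows and say nothing of binding.

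The genes lie on 6 chromosomes of GRCm38 in the GENCODE vM21 annotation. Grem1 is at chr2:113746164-113758646, Bmp2 at chr2:133552159-133562885 and Id1 at chr2:152736251-152737410. Nog is at chr11:89300638-89302332, Fst at chr13:114452290-114458951, Bmpr2 at chr1:59763400-59879014 and Id3 at chr4:136143497-136145755. Bmp4 is at chr14:46383520-46390669 and Bmpr1a at chr14:34410734-34503341. Counts were given for each gene symbol, and neither the gene parts counted over nor the strand setting is given in the sources used here. An annotated gene on the opposite strand overlaps 115 of 4589 exonic bases of Fst, 89 of 2248 of Bmp4 and 290 of 6351 of Bmpr1a. Without the strand setting, it is not known to which gene reads from those bases were assigned.

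Library totals ranged from 38328611 to 50210111 counts with DMSO and from 40272024 to 47670865 with FICZ, so 3 counts correspond to between 0.0597 and 0.0783 CPM, the usual unit of counts scaled to library size, before TMM scaling, which the CPM values below include. In edgeR's quasi-likelihood test, with Benjamini-Hochberg adjustment over all genes and a threshold of 0.05, 3 of the 14251 genes (0.0211%) were past the threshold, all higher with FICZ. They were the AHR targets Cyp1a1 (log2 fold change 3.25), Ahrr (1.66) and Tiparp (0.91), while Cyp1b1 (0.62) missed it with an adjusted p of 0.147. In DESeq2, the tool of the paper, Cyp1b1 was past it with and without a replicate block, and the paper counts Cyp1b1 among its upregulated genes. Tiparp missed the threshold in edgeR with the block, and Cyp1a1 and Tiparp missed it in some fits that left out a library. The ASPC markers summed to between 9970 and 15200 CPM over the libraries, and Pdgfra, the gate's own marker, was among them. Transcripts of 11 hepatocyte markers summed to between 1590 and 9230 CPM with DMSO, highest in DMSO replicate 5, and to between 1720 and 2320 CPM with FICZ. All 11 had the lower mean with FICZ (median log2 fold change -1.11, 10 of 11 at an unadjusted p at or under 0.05 in edgeR, beside 3.49% of all genes), and none of them was at 0 in any library. With the replicate block their median was -0.75 and 0 of 11 were at or under that p, beside 2.17% of all genes. Markers of immune cells summed to at most 42.5 CPM, of endothelial cells to at most 87.9, of mesothelium to at most 84.9, of mural cells to at most 83.3 and of adipocytes to at most 20.9 CPM, with Lep, the leptin gene, at 0 throughout. Of the tested markers, 5 of 6 immune genes (median log2 fold change -0.78) and 5 of 6 endothelial genes had the lower mean with FICZ. The endothelial median was -0.46. At an unadjusted p at or under 0.05 in edgeR, 0 endothelial genes were lower without the block and 2 with it. In the other lists, 1 adipocyte gene was lower in both fits and 1 immune gene without the block. With the block, 1 ASPC gene was lower and 1 mesothelial gene higher. Also lower by the mean were 8 of 9 ASPC genes (median -0.07), 2 of 3 adipocyte genes (-0.09), 3 of 5 mesothelial genes (-0.04) and 3 of 4 mural genes (-0.23). Over all 14251 genes, 6585 were lower. The part of these cell types in the results below was not tested. In bulk samples, fewer cells of a type and less RNA per cell cannot be told apart.

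Per length of exon, the target genes stood highest among the 9 and Nog and Bmp2 lowest. Id3 averaged 137 CPM per kb of exon with DMSO and 125 with FICZ, and Id1 averaged 59.2 and 54.4. Next came the type I receptor gene Bmpr1a with 23.8 and 23.5 CPM per kb, the antagonist gene Fst with 9.51 to 13.8 over all 10 libraries, and the type II receptor gene Bmpr2 with 4.53 and 4.68. Bmp4 averaged 2.68 and 3.03 CPM per kb, Grem1 1.85 and 2.96, Nog 0.681 and 0.689, and Bmp2 0.604 and 0.436. From Id3 down to Bmpr2 the libraries of neighbouring genes did not overlap in either group. Bmpr2 and Bmp4 overlapped with FICZ but not with DMSO, and Bmp4 and Grem1 overlapped in both groups, as did Nog and Bmp2. The Grem1 libraries lay above all Nog libraries in both groups. Exon length here is the union of all annotated exons, which lowers the level per kb of a gene with long rarely used exons.

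**Figure D1:**
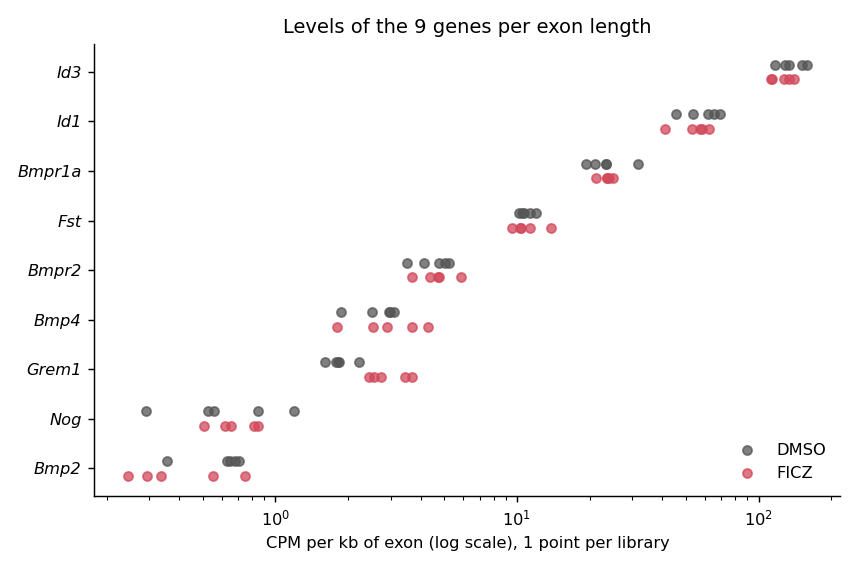
The horizontal axis gives CPM per kb of exon on a log scale, and each point is 1 library, grey for DMSO and red for FICZ. Id3 (137 CPM per kb with DMSO) and Id1 (59.2) stand at the top, Nog and Bmp2 at the bottom, and Grem1 is the gene whose grey and red points do not overlap.

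Grem1, whose product binds BMP2, BMP4 and BMP7, had a mean of 7.68 ± 0.934 CPM with DMSO and 12.3 ± 2.32 CPM with FICZ (SD, n = 5 each). In the DMSO libraries 1 to 5 Grem1 was at 7.55, 7.61, 9.21, 7.39 and 6.65 CPM. In the FICZ libraries 1 to 5 it was at 10.1, 11.3, 10.6, 14.3 and 15.2 CPM. Every FICZ library lay above every DMSO library, and FICZ replicates 4 and 5 lay furthest above. The counts behind these values ran from 288 to 660 per library. The fitted log2 fold change was 0.68 with a standard error of 0.14 and a 95% interval of 0.37 to 0.99, a 1.60-fold difference with an interval of 1.29 to 1.98.

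The call for Grem1 depended on the test. In edgeR's quasi-likelihood test the unadjusted p was 0.000508 and the adjusted p 0.659, so Grem1 was not past the threshold, and blocking on replicate number left the adjusted p at 0.659. In DESeq2 the adjusted p was 0.0189, past the threshold, where 0.0845% of the genes with an adjusted p were called, and with the block in DESeq2, which called 0.14%, it was 0.0707. The exact two-sided permutation test over the 10 libraries gave p = 0.00794 for Grem1, unadjusted for the 9 genes tested this way and the smallest value that 5 against 5 allows. Groups without overlap and with FICZ higher were seen for 50 genes, 0.351% of those tested. Grem1 was put on the list of 9 with results of these libraries known, so its separation is not independent evidence. Without DMSO replicate 5, the library with the most hepatocyte transcripts, the log2 fold change of Grem1 was 0.63, and with the log2 CPM of Alb, the albumin gene, as a covariate it was 0.57.

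The other antagonist genes among the 9 differed by less than the spread between libraries. Nog, whose product noggin sequesters BMP2 and BMP4, was at 0.892, 1.43, 2.02, 0.945 and 0.493 CPM in DMSO libraries 1 to 5 and at 1.05, 1.44, 1.11, 1.38 and 0.855 CPM in FICZ libraries 1 to 5. The FICZ libraries lay within the range of the DMSO libraries, which was set by replicates 3 and 5. Its log2 fold change was 0.02 with a 95% interval of -0.72 to 0.75, so at 24 to 88 counts a library neither a fall to 0.609-fold nor a 1.69-fold rise lay outside the interval. The direction for Nog was not stable, since its log2 fold change was 0.32 without DMSO replicate 3 and -0.18 without DMSO replicate 5, and -0.33 with Alb as a covariate. Fst, whose product follistatin binds activins and, less tightly, BMPs, had 50.3 ± 3.35 CPM with DMSO and 50.8 ± 7.67 CPM with FICZ. FICZ replicate 3 was its highest library at 63.5 CPM and FICZ replicate 5 its lowest at 43.6 CPM, on both sides of the DMSO range of 46.9 to 55.2 CPM. For Fst the log2 fold change was 0.01 with an interval of -0.21 to 0.24, and its sign changed with the scaling, to -0.01 with upper-quartile factors.

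**Figure D2:**
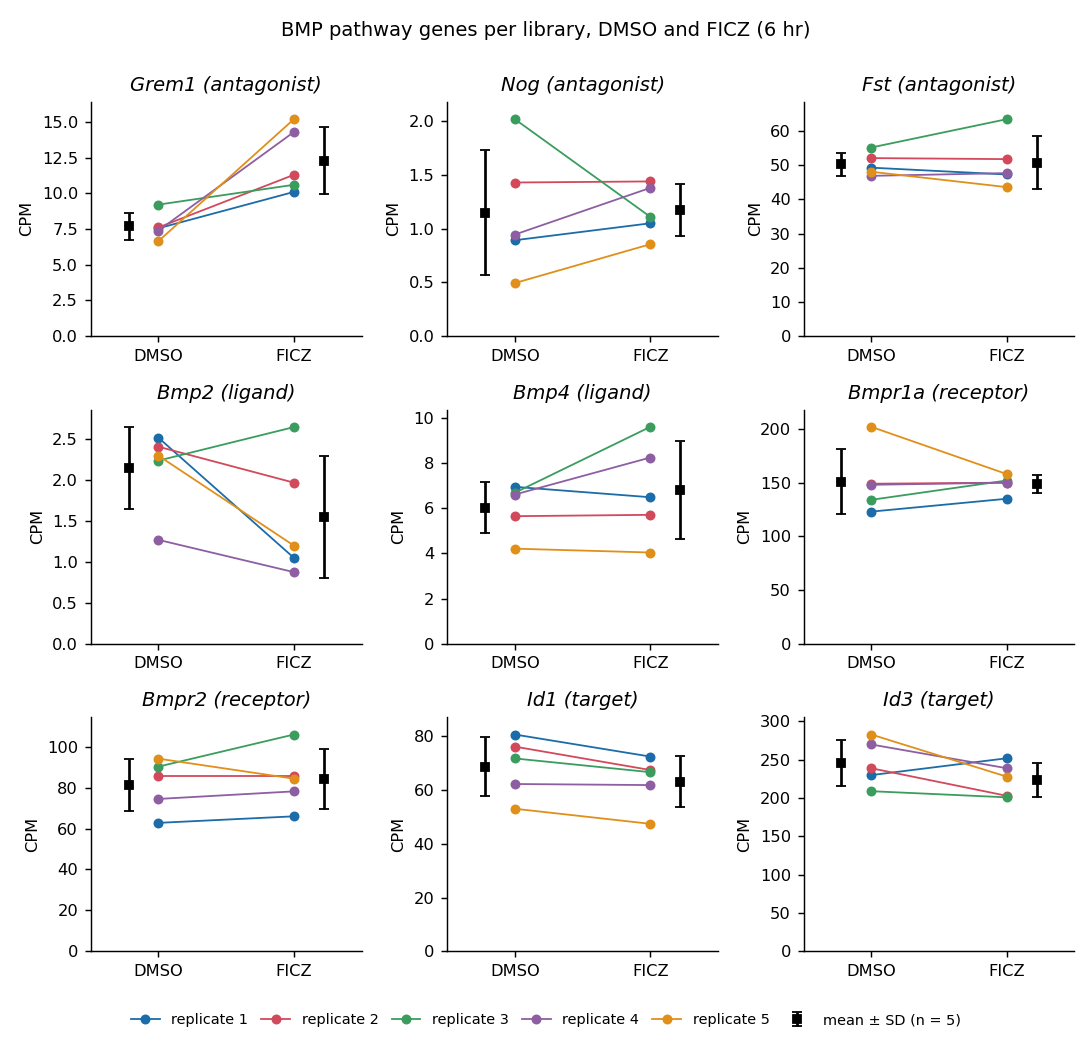
Each panel plots 1 gene in CPM on a linear axis from 0, with each colour a replicate number, lines joining the same number in DMSO and FICZ, and black squares with bars for mean ± SD (n = 5). All 5 Grem1 lines climb, from 7.68 to 12.3 CPM on average, all 5 Id1 lines descend slightly, and the other panels hold lines in both directions.

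Of the ligand genes, Bmp2, a ligand long used to induce bone and fat commitment in culture, was at 2.52, 2.41, 2.24, 1.27 and 2.30 CPM in DMSO libraries 1 to 5. In FICZ libraries 1 to 5 it was at 1.05, 1.97, 2.65, 0.875 and 1.20 CPM. It was lower with FICZ in pairs 1, 2, 4 and 5 and higher in pair 3, and the groups overlapped because FICZ replicates 2 and 3 were high and DMSO replicate 4 was low. The log2 fold change of Bmp2 was -0.47 (standard error 0.32) with a 95% interval of -1.16 to 0.22, at 38 to 120 counts a library. Its value was -0.75 without FICZ replicate 3 and -0.32 without FICZ replicate 4. Its unadjusted p was 0.162 in edgeR and 0.054 with the replicate block, and the adjusted p was 0.999 and 0.929. With the block, the log2 fold change of Bmp2 was -0.54 with an interval of -1.10 to 0.01.

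Bmp4, the ligand tied most closely to commitment of white adipocyte precursors, was at 6.95, 5.65, 6.69, 6.61 and 4.21 CPM in DMSO libraries 1 to 5. In FICZ libraries 1 to 5 it was at 6.49, 5.71, 9.61, 8.25 and 4.04 CPM. Replicate 5 was the lowest library of both groups, and FICZ replicates 3 and 4 were the highest libraries. For Bmp4 the log2 fold change was 0.18 with an interval of -0.31 to 0.67, and without FICZ replicate 3 it was 0.03.

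The receptor genes were close to equal between groups. Bmpr1a, the type I receptor that binds BMP2 and BMP4, had 151 ± 30.4 CPM with DMSO and 149 ± 8.53 CPM with FICZ. DMSO replicate 5 stood at 202 CPM, above all other libraries, which lay between 123 and 158 CPM. That library also had the most hepatocyte transcripts, and the part of these in the Bmpr1a level was not tested. The log2 fold change of Bmpr1a was -0.02 with an interval of -0.28 to 0.24, and it was 0.11 without DMSO replicate 5. Bmpr2, the type II receptor that phosphorylates the type I receptor, had 81.4 ± 12.8 CPM with DMSO and 84.1 ± 14.7 CPM with FICZ. Its log2 fold change was 0.05 with an interval of -0.26 to 0.35, and replicate 1 was its lowest library in both groups at 62.8 and 66.0 CPM. The intervals of the fold, 0.821 to 1.18 for Bmpr1a and 0.837 to 1.27 for Bmpr2, bound how large a difference these libraries leave room for.

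The Id genes encode inhibitors of basic helix-loop-helix transcription factors and are read as a measure of BMP signaling, although other pathways regulate them too. Id1 was at 80.6, 76.1, 71.7, 62.2 and 53.0 CPM in DMSO libraries 1 to 5. In FICZ libraries 1 to 5 Id1 was at 72.4, 67.4, 66.6, 61.8 and 47.4 CPM. The libraries ranked the same way by number in both groups, and in each of the 5 pairs the FICZ library was the lower one, although the groups overlapped widely. The mean of Id1 was 68.7 ± 11.1 CPM with DMSO and 63.1 ± 9.58 CPM with FICZ. Id1 had a log2 fold change of -0.12 with an interval of -0.42 to 0.17, which is 0.919-fold with an interval of 0.748 to 1.13. Leaving out 1 library gave values for Id1 from -0.05, without FICZ replicate 5, to -0.20, without DMSO replicate 5.

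With the replicate block the log2 fold change of Id1 was again -0.12, with a standard error of 0.06 in place of 0.14, an interval of -0.25 to 0.01, an unadjusted p of 0.0675 and an adjusted p of 0.929 in edgeR. A gene lower in all 5 pairs was seen 400 times, in 2.81% of the genes tested, and a gene higher in all 5 pairs, as Grem1 was, in 4.32%. For Id1 the exact permutation test over all 10 libraries gave p = 0.452.

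Id3 was at 230, 239, 209, 270 and 283 CPM in DMSO libraries 1 to 5. In FICZ libraries 1 to 5 Id3 was at 252, 203, 201, 239 and 228 CPM. The FICZ library was the lower one in pairs 2 to 5 and the higher one in pair 1, and the groups overlapped. At least 4 pairs lower was a common outcome, seen in 15.6% of the genes tested. Id3 had a log2 fold change of -0.13 with an interval of -0.36 to 0.09, or 0.912-fold with an interval of 0.781 to 1.06, and the exact permutation p was 0.246. Its value was -0.08 without DMSO replicate 5 and -0.19 without DMSO replicate 3. With Alb as a covariate the log2 fold change was -0.05 for Id3 and -0.21 for Id1.

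**Figure D3:**
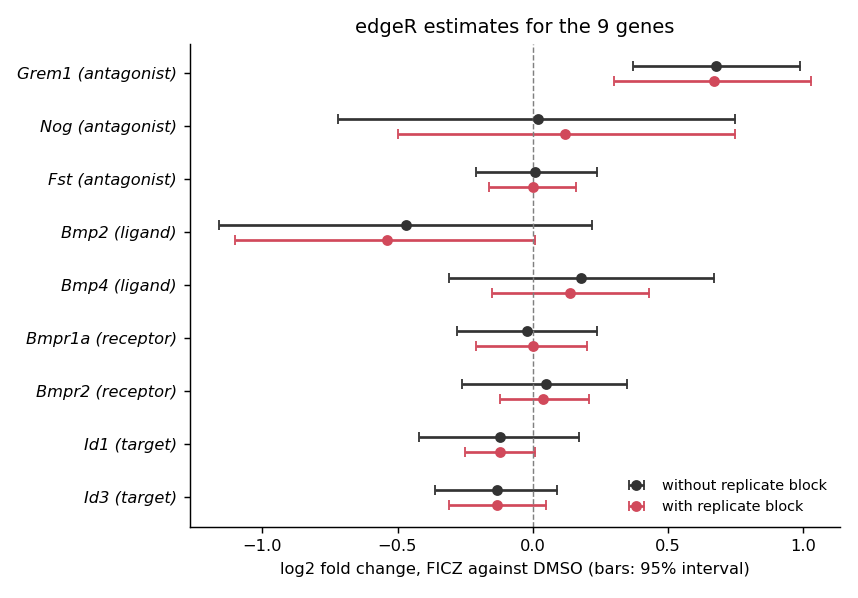
The horizontal axis gives the log2 fold change of FICZ against DMSO from edgeR for each of the 9 genes, in black without and in red with a block on replicate number, with 95% intervals as bars. The intervals of Grem1, 0.37 to 0.99 and 0.30 to 1.03, lie above 0, and those of the other 8 genes include 0 in both fits.

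Across the 9 genes, 0 were past the threshold in edgeR with or without the block, against 0.0211% and 0.0561% of all genes. At an unadjusted p at or under 0.05 there was 1 in each fit, Grem1 both times, where 4.82% and 4.65% of all genes were. DESeq2 called 1 of the 9, Grem1, and limma-voom, which called 0.0211% of all genes, called 0 of the 9, with an adjusted p of 0.822 for Grem1. The median log2 fold change of the 9 was 0.01, the same as over all genes tested, with 5 genes higher and 4 lower by the mean.

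Within same-numbered pairs, the log2 CPM of Grem1 was higher with FICZ by 0.41, 0.56, 0.20, 0.94 and 1.19 in pairs 1 to 5. The differences of Id1 in the same pairs were -0.15, -0.17, -0.11, -0.01 and -0.16. Those of Id3 were 0.13, -0.24, -0.06, -0.18 and -0.31. Since Grem1 was higher in every pair, the counts of pairs with Id1 lower (5, with pair 4 close to 0) and Id3 lower (4) are those genes' own counts and do not show whether they follow Grem1. The sizes did not line up for Id1, since pair 4, with a larger Grem1 difference than every pair but pair 5, had the smallest Id1 difference. For Id3, pair 5 had the largest difference of both genes, while pair 2 came next for Id3 and pair 4 for Grem1. No correlation was tested, because 5 pairs are too few and the 10 libraries fall into separate groups by Grem1.

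**Figure D4:**
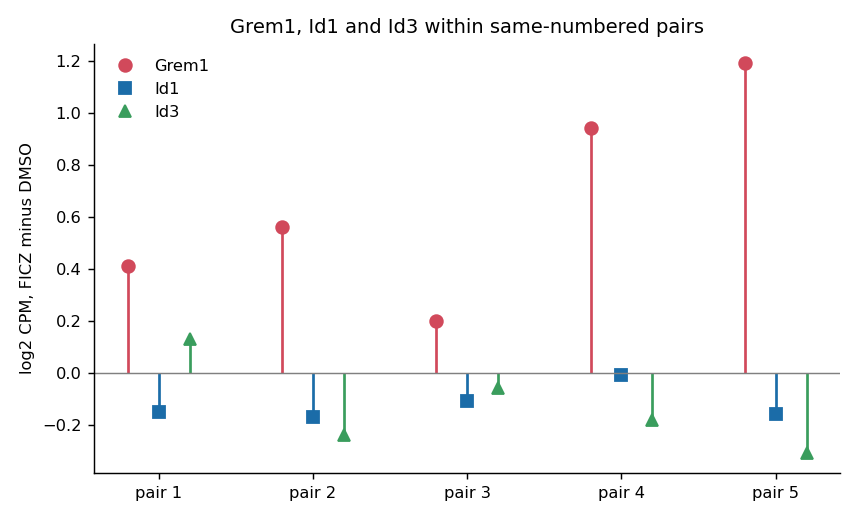
The vertical axis gives the difference in log2 CPM, FICZ minus DMSO, for Grem1 (red circles), Id1 (blue squares) and Id3 (green triangles) in each same-numbered pair. Grem1 lies above 0 in all 5 pairs and by 1.19 in pair 5, Id1 lies at or just under 0 with -0.01 in pair 4, and Id3 lies above 0 in pair 1 alone.

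Within the groups, the deviations of log2 CPM from the group mean gave a Pearson correlation over the 10 libraries of -0.30 between Grem1 and Id1, -0.265 between Grem1 and Id3, and -0.468 between Id1 and Id3. The points share library, depth and the composition of each culture, so these values are descriptive. The genes whose deviations were most like those of Grem1 were Setbp1 (0.929), Gab2 (0.915), Gpr107 (0.909), Adamts4 (0.906) and Ap3b1 (0.905). Those most like Id1 were Nop9 (0.978), Fam104a (0.969), Usp39 (0.968), Mapk13 (0.966) and Fjx1 (0.963). Those most like Id3 were Miip (0.97), Alg1 (0.97), Gcat (0.956), Asb8 (0.949) and Cdca3 (0.943). No member of the 9 was among the 5 nearest to Grem1, Id1 or Id3. Among the 9, Bmp4 was nearest to Id1 with 0.664 and Bmpr1a furthest with -0.771, while Id3 had -0.671 with Nog, -0.677 with Bmp2 and -0.695 with Fst. Among all genes tested, many lay nearer or further. By likeness to Id1, Bmp4 had rank 2094 and Bmpr1a rank 13209. By likeness to Grem1, Id1 had rank 10610 and Id3 rank 10257. By likeness to Id3, the ranks were 12842 for Nog, 12882 for Bmp2 and 13034 for Fst.

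The rest of the pathway was described with lists of ligands, receptors and co-receptors, antagonists, SMAD mediators, targets and genes of BMP-driven adipogenic commitment, 72 genes in all, of which 58 had enough reads. In edgeR 0 of the 58 were past the threshold with or without the block, and DESeq2 called 1, Grem1. At an unadjusted p at or under 0.05 without the block there was 1 higher, Grem1, and 1 lower, Hjv, beside 1.33% and 3.49% of all genes. With the block there were 3 higher, with Grem1 and Ccn5 among them, and 3 lower, Gdf10, Rgma and Hjv, beside 2.48% and 2.17% of all genes. By the mean, 24 of the 58 were higher and 34 lower with FICZ, with a median log2 fold change of -0.03 beside 0.01 over all genes.

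Of the antagonists, 15 of 20 were tested, 8 higher and 7 lower by the mean, with a median log2 fold change of 0.01. Fstl1, a follistatin-like secreted glycoprotein, had the highest level per kb of the list and lay between 1110 and 1290 CPM in all 10 libraries, with a log2 fold change of -0.01.

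Of the ligands, 9 of 15 were tested, 3 higher and 6 lower by the mean, with a median log2 fold change of -0.21 and a range of -0.87 to 0.61. Gdf6, also called BMP13, had the highest level per kb of the list, 24.7 CPM per kb with DMSO and 23.6 with FICZ. Gdf6 was lower with FICZ in pairs 1 to 3 and higher in pairs 4 and 5, with a log2 fold change of -0.07. Gdf10, also called BMP3B, was lower with FICZ in all 5 pairs, with a log2 fold change of -0.21 and an unadjusted p of 0.674, and -0.20 with the block and an unadjusted p of 0.0315. The Gdf10 levels fell into 2 ranges by replicate number, 8.83 to 13.2 CPM in replicates 1 to 3 and 26.2 to 36.6 CPM in replicates 4 and 5 of both groups.

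All 12 receptor and co-receptor genes were tested, 4 higher and 8 lower by the mean, with a median log2 fold change of -0.02. Eng, which encodes the co-receptor endoglin, had the highest level per kb of this list, 43.0 CPM per kb with DMSO and 41.6 with FICZ, with a log2 fold change of -0.05. Rgma, a glycosylphosphatidylinositol-anchored BMP co-receptor, had 61.9 ± 6.11 CPM with DMSO and 53.3 ± 9.43 CPM with FICZ, a log2 fold change of -0.22 (unadjusted p 0.0956, and 0.0444 with the block). Hjv, the hemojuvelin co-receptor that is known from hepatocytes and muscle, was at 3.20, 1.19, 1.17, 2.97 and 7.16 CPM in DMSO libraries 1 to 5 and between 0.933 and 1.69 CPM with FICZ. Its log2 fold change was -1.19, with an unadjusted p of 0.0239 and an adjusted p of 0.999 in edgeR. DMSO replicates 1, 4 and 5, the high libraries for Hjv, were also the 3 libraries with the most hepatocyte transcripts. The log2 fold change of Hjv was -0.63 without DMSO replicate 5 and -0.16 with Alb as a covariate. Alb itself had the lower mean with FICZ, so the covariate cannot separate hepatocyte transcripts from treatment. The part of these transcripts in the Hjv difference was not tested.

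All 10 SMAD mediators were tested, 5 higher and 5 lower by the mean, with a median log2 fold change of -0.01. Smurf2, a ubiquitin ligase that marks SMADs and receptors for degradation, had the highest level per kb and averaged 301 ± 102 CPM with DMSO and 311 ± 103 CPM with FICZ. Of the targets, 10 of 13 were tested, 3 higher and 7 lower by the mean, with a median of -0.04 and a range of -0.26 to 0.10. Id3 itself had the highest level per kb of the targets. All 6 commitment genes were tested, 2 higher and 4 lower by the mean, with a median of -0.05. The protein of Ccn5, also called WISP2, is known to hold the commitment factor ZFP423 in the cytosol of precursors until BMP4 releases it. Ccn5 was at 8.38 ± 2.23 CPM with DMSO and 11.1 ± 2.72 CPM with FICZ. It was higher with FICZ in all 5 pairs, by between 0.33 and 0.48 in log2 CPM. The log2 fold change of Ccn5 was 0.40 with an unadjusted p of 0.0823, and 0.41 with the block, with an unadjusted p of 0.000867 and an adjusted p of 0.475 in edgeR. Pparg, the master regulator of adipogenesis, had the highest level per kb of this list and a log2 fold change of -0.06.

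**Figure D5:**
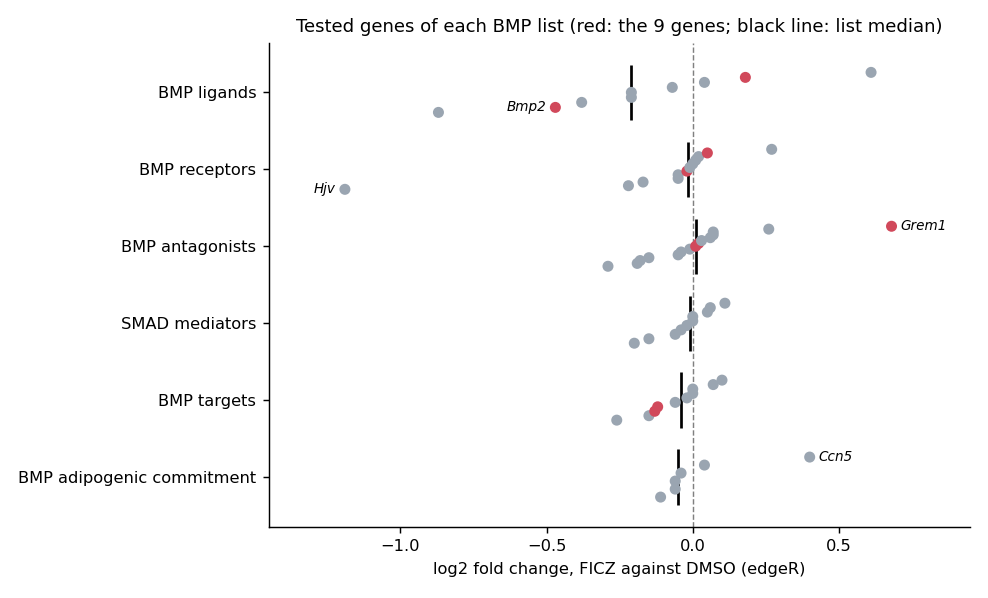
The horizontal axis gives the log2 fold change of FICZ against DMSO from edgeR, and each point is 1 tested gene of the list named at the left, red for the 9 genes, with a black line at the list's median. Medians lie between -0.21 for the ligands and 0.01 for the antagonists, and Grem1 at 0.68 is the highest point of the plot.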

How the data were processed

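The authors aligned the reads with STAR 2.7.7 to mm10, per the methods and the submitters' processing notes, and deposited unnormalized read counts for each gene symbol. The counting program, annotation and strand setting are not given in the sources used here. In R 4.3.3, genes were filtered with filterByExpr, scaled by TMM and tested with edgeR 4.0.16 (quasi-likelihood, robust, all 10 libraries, no covariate, Benjamini-Hochberg over 14251 genes, threshold 0.05). DESeq2 1.42.0, the tool of the study's methods, and limma 3.58.1 (voom) were alternatives, as were other scalings, filters, Alb as a covariate, the replicate number as a block and leaving out each library. CPM used a prior count of 2 on the log2 scale for pair differences, permutation tests and correlations. edgeR estimated a biological coefficient of variation of 0.209 (0.17 under the block).

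Same-numbered libraries deviated together from the group means in all 5 pairs (correlation over genes 0.154 to 0.317). The average of -0.06 over other pairs is no separate support, since deviations cancel out within a group. Other pairs ran from -0.395, for DMSO 4 with FICZ 2, to 0.368, for DMSO 4 with FICZ 5. DMSO 3 had 0.303 with FICZ 2 and 0.154 with FICZ 3. The numbers were treated as pairing the samples, which these values do not settle. What a number stands for is not given in the sources used here. Libraries of 1 group differed beyond sampling noise (chi-square per degree of freedom 15.7 to 266 over 20 library pairs).

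Tested on simulated data of FICZ against DMSO with 14251 genes, edgeR recovered 27.5% of changes of 0.5, 81.2% of 1 and 100% of 2 (log2). With the replicate block, edgeR recovered 17.5%, 72.5% and 100%. The changes were placed only in genes above a floor of mean counts, and no effect of replicate number was simulated. These rates therefore do not cover genes with fewer counts. The 9 genes and the lists were chosen with earlier results of these data known. Genes named beside the 9 were, per list, those at an unadjusted p at or under 0.05 in edgeR with or without the block and the one highest per kb, 4 AHR targets, and the 5 genes most like Grem1, Id1 and Id3. A gene that this rule names is not reported here. Exon lengths came from GENCODE vM21, and Hjv was matched by its RefSeq synonym.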

Additional observations from a re-analysis of the deposited data

Results flagged for a closer look

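In groups of 5, the lowest or highest library was compared with the rest by its gap to the nearest library over the group's range, against Dixon's 95% critical value. Bmp2 was lowest in DMSO replicate 4 with a ratio of 0.832, at 1.27 CPM beside 2.24 to 2.52 CPM in the other DMSO libraries. FICZ replicate 4 was also the lowest Bmp2 library of its group, at 0.875 CPM. Ahrr was lowest in DMSO replicate 4 with a ratio of 0.857, at 6.24 CPM beside 10.6 to 11.6 CPM. These were 2 of 76 groups checked over 38 named genes, and chance marks about 1 in 20 groups, or 3.8 of 76.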

How the results depend on the processing

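Past the threshold over all genes were 3 in edgeR, 8 with the replicate block, 16 in DESeq2, 26 in DESeq2 with the block, and 8 with the block and without pair 5, a setting chosen after seeing the data. Leaving out 1 library gave 1 to 4, and 1 without DMSO replicate 1 or 2 or FICZ replicate 1, 2 or 3. Of the 9 genes and of the pathway lists 0 passed in edgeR and 1, Grem1, in DESeq2. Of the calls in the simulation, 17.5% were false in DESeq2 and 3.05% in edgeR. With the replicate block, 25.8% were false in DESeq2 and 7.44% in edgeR. Those shares depend on the changes simulated and do not tell whether the Grem1 call is false. No other call among the 9 changed with the block, and 0 passed when any 1 library was left out. The adjusted p of Grem1 lay between 0.392 and 1.0 over the libraries left out, and its log2 fold change between 0.58 and 0.75. Exact permutation placed 1 of the 9, Grem1, at or under 0.05 when any 1 library was left out too. For Grem1 that outcome was fixed in advance, since groups without overlap stay apart when a library is removed. With any 1 pair left out, Id1 was lower in 4 of the 4 left and Id3 in 3 to 4. These counts follow from those over all 5 pairs and are no further test. Signs turned for small differences. With Alb as a covariate the log2 fold change was -0.33 for Nog, -0.02 for Fst, 0.10 for Bmpr1a, 0.28 for Gdf10, 0.01 for Fstl1, -0.12 for Smurf2, -0.02 for Nop9, -0.02 for Usp39, -0.12 for Fjx1, 0.05 for Miip, 0.07 for Gcat and 0.05 for Cdca3. It was -0.01 for Fst with upper-quartile factors, and 0.03 for Gdf6 with the block in edgeR, 0.03 in DESeq2 with the block and 0.04 in limma-voom. With the block and without pair 5 it was -0.04 for Nog, 0.08 for Bmpr1a and 0.01 for Eng. The cause was not tested. Leaving out 1 library gave -0.18 to 0.32 for Nog, -0.08 to 0.05 for Fst, -0.10 to 0.11 for Bmpr1a, -0.05 to 0.12 for Bmpr2, -0.58 to 0.09 for Gdf10, -0.27 to 0.08 for Gdf6, -0.05 to 0.02 for Fstl1, -0.13 to 0.21 for Smurf2, -0.15 to 0.05 for Setbp1, -0.13 to 0.05 for Adamts4, -0.02 to 0.05 for Usp39, -0.09 to 0.12 for Fjx1, -0.12 to 0.02 for Miip, -0.15 to 0.02 for Gcat, -0.01 to 0.07 for Asb8 and -0.17 to 0.01 for Cdca3. At 24 to 120 counts a library, Nog and Bmp2 are the genes of the 9 most limited by depth.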
